A study of Mus musculus with 2 samples.

Results

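Cdkn1a, Mdm2, Polh and Gadd45a are target genes of p53 at which an HDAC4 ChIP peak was listed in proliferating C2C12 myoblasts. Members were chosen from the peak list itself, which holds 229 peaks of HDAC4 ChIP over input. Cdkn1a, Mdm2 and Polh are named in the gene column for their peaks, and the fourth peak, which that column gives to the long non-coding RNA E230016M11Rik, was taken for Gadd45a because it lies over the Gadd45a start site. The 4 peaks are therefore 4 of 229 in all, and 4 of the 188 peaks of ordinary pileup, that is at most 5 times the median, on chromosomes 1 to 19 and X. Since being in the list is what chose them, their enrichment over input is described below and not tested.

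C2C12 is an immortalized mouse myoblast line of the C3H strain, kept here at passages 30-32. The cells were grown for 24 hours in GM, a growth medium rich in serum, with no other treatment and no genetic change given in the labels. Formaldehyde-fixed chromatin was sheared and pulled down with an antibody to HDAC4, and both the precipitate and the input chromatin were sequenced, which gave 1 library of each and no replicate. Rabbit IgG is named in the labels as a negative control and was not analysed here, and neither library measures the expression of genes that mark myoblasts.

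HDAC4 is a class IIa histone deacetylase. It does not bind DNA by itself and is brought to chromatin by transcription factors such as the MEF2 family, where it acts mostly as part of repressor complexes. P53 is a transcription factor that is stabilized after DNA damage and other stress, and it binds pairs of half-sites near genes that stop the cell cycle, repair DNA, start apoptosis or limit p53 itself. The 4 genes stand for these roles. Cdkn1a encodes P21, the cyclin-dependent kinase inhibitor that also accompanies the exit of myoblasts from the cell cycle. Gadd45a encodes a small stress protein of growth arrest and DNA repair, Polh encodes DNA polymerase eta, which copies past ultraviolet damage, and Mdm2 encodes the ubiquitin ligase that sends p53 to degradation.

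The sequences under the peaks are given first, because the genes share a pathway and the question of what their peaks share in sequence can be read from the letters. All are from the GRCm38 assembly of RefSeq, 5′ to 3′ along the named gene except where stated, and untranslated exons are left out. The first is the 300 bases around the summit in Cdkn1a, at chr17:29094800-29095099 on the plus strand, with no match to the p53 half-site, so it has no capitals. The second is the closest p53 match near Cdkn1a, at chr17:29090928-29090947, outside the peak, printed in capitals as a whole. The third is the whole Mdm2 peak, at chr10:117710029-117710325 on the minus strand, with the p53 matches in capitals. The fourth is the stretch between the start sites of Polh and Xpo5, at chr17:46202646-46202781, on the plus strand and therefore in the direction of Xpo5, with the whole matches to the core motif of NRF1 in capitals. The last is the part of the Gadd45a peak from the start codon onward, at chr6:67037124-67037244 on the minus strand, with a GC box in capitals, read here on its other strand as CCGCCC.
Cdkn1a intron 1: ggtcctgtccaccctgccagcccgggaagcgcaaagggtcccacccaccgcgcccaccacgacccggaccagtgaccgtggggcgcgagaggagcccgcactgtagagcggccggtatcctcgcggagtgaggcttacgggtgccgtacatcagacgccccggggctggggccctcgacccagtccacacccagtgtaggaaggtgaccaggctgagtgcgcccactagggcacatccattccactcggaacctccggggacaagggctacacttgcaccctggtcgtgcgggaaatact
Cdkn1a best p53 match: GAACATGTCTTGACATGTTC
Mdm2 intron 1: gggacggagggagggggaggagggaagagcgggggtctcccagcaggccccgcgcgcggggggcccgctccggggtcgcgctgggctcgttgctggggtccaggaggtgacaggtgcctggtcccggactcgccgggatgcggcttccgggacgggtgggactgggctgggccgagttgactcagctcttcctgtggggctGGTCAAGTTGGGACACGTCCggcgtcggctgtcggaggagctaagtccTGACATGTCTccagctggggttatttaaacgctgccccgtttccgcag
Polh-Xpo5: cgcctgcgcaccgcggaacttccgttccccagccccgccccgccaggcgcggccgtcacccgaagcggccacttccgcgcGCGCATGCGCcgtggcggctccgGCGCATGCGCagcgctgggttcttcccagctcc
Gadd45a: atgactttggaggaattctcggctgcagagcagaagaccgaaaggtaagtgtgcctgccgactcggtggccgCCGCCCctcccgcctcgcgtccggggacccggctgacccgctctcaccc

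Peaks rested on few tags. MACS, the peak caller, kept 1920168 of 10903000 ChIP tags (17.6%) and 17798166 of 19038793 input tags (93.5%), because it keeps 1 tag per position, and 82.4% of the ChIP tags were dropped. Over all 229 peaks the pileup, the number of ChIP fragments of 297 bp that cover the summit, ran from 6 to 351 tags with a median of 11, and over the 188 peaks of ordinary pileup it ran from 6 to 54 with a median of 10. A further 40 peaks had higher pileups, and none of the 4 genes has its peak among them. Intervals given below are 95% intervals for counting error only and do not cover the spread between cultures, which 1 library cannot show.

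Polh had the strongest of the 4 peaks, with 25 ChIP tags at the summit and a fold of 13.96 over the local input. Cdkn1a and Gadd45a each had 12 tags, with folds of 6.97 and 7.89. Mdm2 had the lowest pileup and the lowest deposited fold, 9 tags and 6.61. The order by pileup was Polh, then Cdkn1a and Gadd45a, then Mdm2, and the order by deposited fold put Gadd45a before Cdkn1a. Without the tag that the fold adds to both sides, the ratio of ChIP to input was lowest at Cdkn1a (13.9), followed by Mdm2 (17.6), Gadd45a (18.5) and Polh (29.0), so the order of Cdkn1a and Mdm2 turned. The exact Poisson intervals of the pileups overlapped in all 6 pairs of peaks, so that neighbours in this order were not told apart by them.

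**Figure D1:**
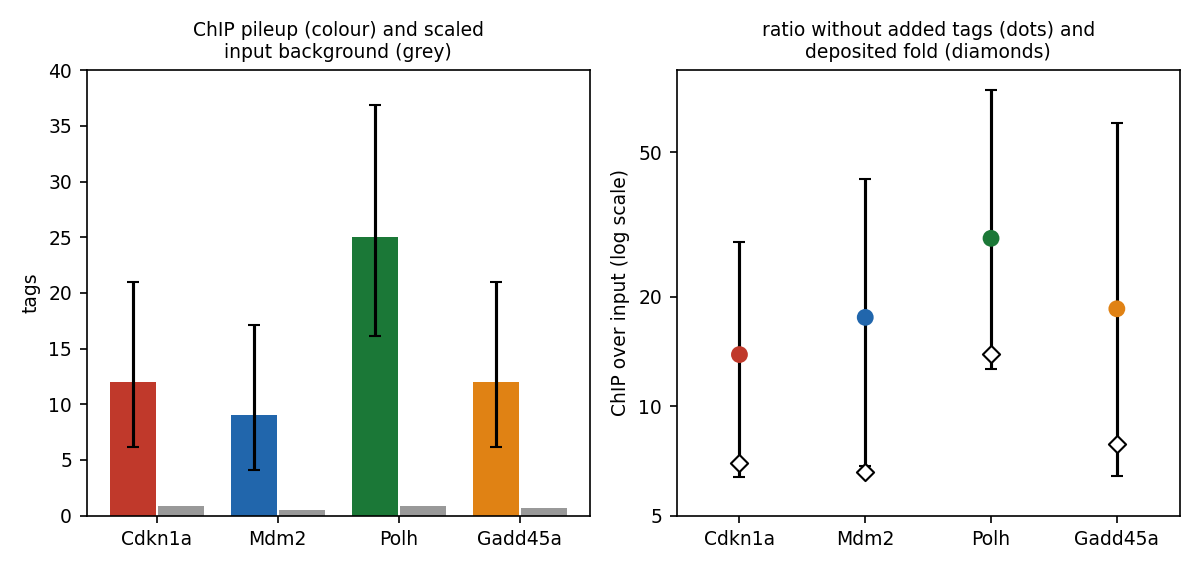
ChIP pileup at the summit with its exact Poisson 95% interval (coloured bars) and scaled input background (grey bars), both in tags, and ChIP over input on a log scale, as the ratio without added tags with its 95% interval (dots) and as the deposited fold, which adds 1 tag to both sides (diamonds). The 4 pileups are 12, 9, 25 and 12 tags and each scaled background is under 1 tag.

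At Cdkn1a, the summit pileup was 12 tags (6.20–20.96). The scaled input background recovered from the deposited fold was 0.865 tags, which is 8.02 input tags before scaling and comes from 27 input tags (17.8–39.3) in 1 kb. The deposited fold, (pileup + 1) / (background + 1), was 6.97, with a −log10 p of 10.96 and a −log10 q of 6.14. Without the added tags the ratio of ChIP to input was 13.9 (6.40–28.3). By fold the peak ranked 90 of 229, a rank that it shared with another peak, so it stood near the middle of the list.

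The Cdkn1a peak spans chr17:29094797-29095131 of mm10 (335 bp), with the summit at 29094949. The gene (ENSMUSG00000023067.14) runs from 29090976 to 29100727 on the plus strand. The summit lay in intron 1 of the protein-coding transcripts Cdkn1a-201, Cdkn1a-202 and Cdkn1a-205, which have 3 exons each. It was 1168 bp past the start of Cdkn1a-205, 1180 bp past that of Cdkn1a-201 and 3970 bp past that of Cdkn1a-202, while Cdkn1a-203 starts 2951 bp further on. No start site of the gene lies in the peak, in which it differs from the other 3.

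At Gadd45a, the pileup was also 12 tags (6.20–20.96), over a scaled background of 0.647 tags. This background is 6 input tags (2.20–13.1) in 297 bp, the fragment length. The fold was 7.89, with a −log10 p of 12.5 and a −log10 q of 7.61, and the ratio without the added tags was 18.5 (6.44–60.2). Gadd45a ranked 39 of 229 by fold, together with 2 more peaks of the same fold. With the same ChIP tags as Cdkn1a, its higher fold came from the lower input count, and the intervals of the 2 ratios overlapped.

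The Gadd45a peak spans chr6:67037124-67037421 (298 bp), with the summit at 67037310. The gene (ENSMUSG00000036390.8) runs from 67035096 to 67037457 on the minus strand. The summit lay in the untranslated part of exon 1, 96 bp past the start of Gadd45a-201, 54 bp past that of Gadd45a-207 and 59 bp before that of Gadd45a-206. In Gadd45a-201 the peak covers 162 bp of untranslated and 44 bp of coding exon. On the plus strand the same summit is 711 bp into E230016M11Rik (ENSMUSG00000087231.7), in intron 1 of a transcript of 7 exons, and the deposited table lists the peak as intronic in a non-coding RNA. The 2 genes overlap head to head, with start sites 807 bp apart.

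Polh is the DNA polymerase gene of the set. Its peak had 25 tags (16.2–36.9) over a scaled background of 0.863 tags, which is 8 input tags (3.45–15.8) in 297 bp. The fold was 13.96, with a −log10 p of 28.6 and a −log10 q of 23.4, and the ratio without the added tags was 29.0 (12.7–74.3). By fold it ranked 3 of 229, by −log10 p 30 and by pileup 49. Among the 188 peaks of ordinary pileup it ranked 8 by pileup. Its ChIP pileup was 2.08 times that of Gadd45a (1.01–4.55), and the pileup of Cdkn1a was 0.48 times (0.220–0.991) and that of Mdm2 0.36 times (0.148–0.797) that of Polh. Of the 6 pairs compared, these 3 have intervals that leave out 1, before any adjustment for the number of pairs. The lower bound for Gadd45a and the upper bound for Cdkn1a are close to 1. Counting intervals do not allow for the choice of these peaks from the list. The ratios therefore describe the counts and test no difference between genes.

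The Polh peak spans chr17:46202483-46202949 (467 bp) and is the longest of the 4, with the summit at 46202734. Polh (ENSMUSG00000023953.9) runs from 46171355 to 46202645 on the minus strand, and Xpo5 (ENSMUSG00000067150.6), which encodes the exporter of microRNA precursors from the nucleus, runs from 46202782 to 46243598 on the plus strand. The transcription start sites of the protein-coding transcripts of Polh and Xpo5 are 137 bp apart and both lie in the peak, with the summit between them, 89 bp from Polh and 48 bp from Xpo5. One peak thus covers a promoter shared by both genes, and its tags cannot be assigned to Polh rather than Xpo5.

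Mdm2 acts on p53 itself. Its peak had 9 tags (4.12–17.1) over a scaled background of 0.513 tags, which is 4.75 input tags before scaling. Read in the 1-kb window, this background comes from 16 input tags (9.15–26.0). As at Cdkn1a, the 10-kb reading fits equally, and the intervals of the count and the ratio rest on the 1-kb one. The fold was 6.61, with a −log10 p of 9.66 and a −log10 q of 4.97, and the ratio without the added tags was 17.6 (6.84–42.2). By fold it ranked 119 of 229 and by −log10 p 172, so that it came last of the 4 by both. Its pileup was 0.75 times (0.279–1.94) that of Gadd45a, and that of Cdkn1a was 1.33 times (0.516–3.58) that of Mdm2. The lowest −log10 q in the list was 2.80, and regions that missed the cutoff were not analysed here.

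The Mdm2 peak spans chr10:117710029-117710325 (297 bp), with the summit at 117710132. The gene (ENSMUSG00000020184.15) runs from 117688875 to 117710758 on the minus strand. The summit lay in intron 1 of the protein-coding transcript Mdm2-202 (12 exons) and of another coding transcript with the same start, 626 bp past that start. Mdm2 is known for a second promoter in this intron that p53 turns on. The non-coding transcripts Mdm2-206 and Mdm2-207 start inside the peak, the first 54 bp past the summit and the other 160 bp before it.

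**Figure D2:**
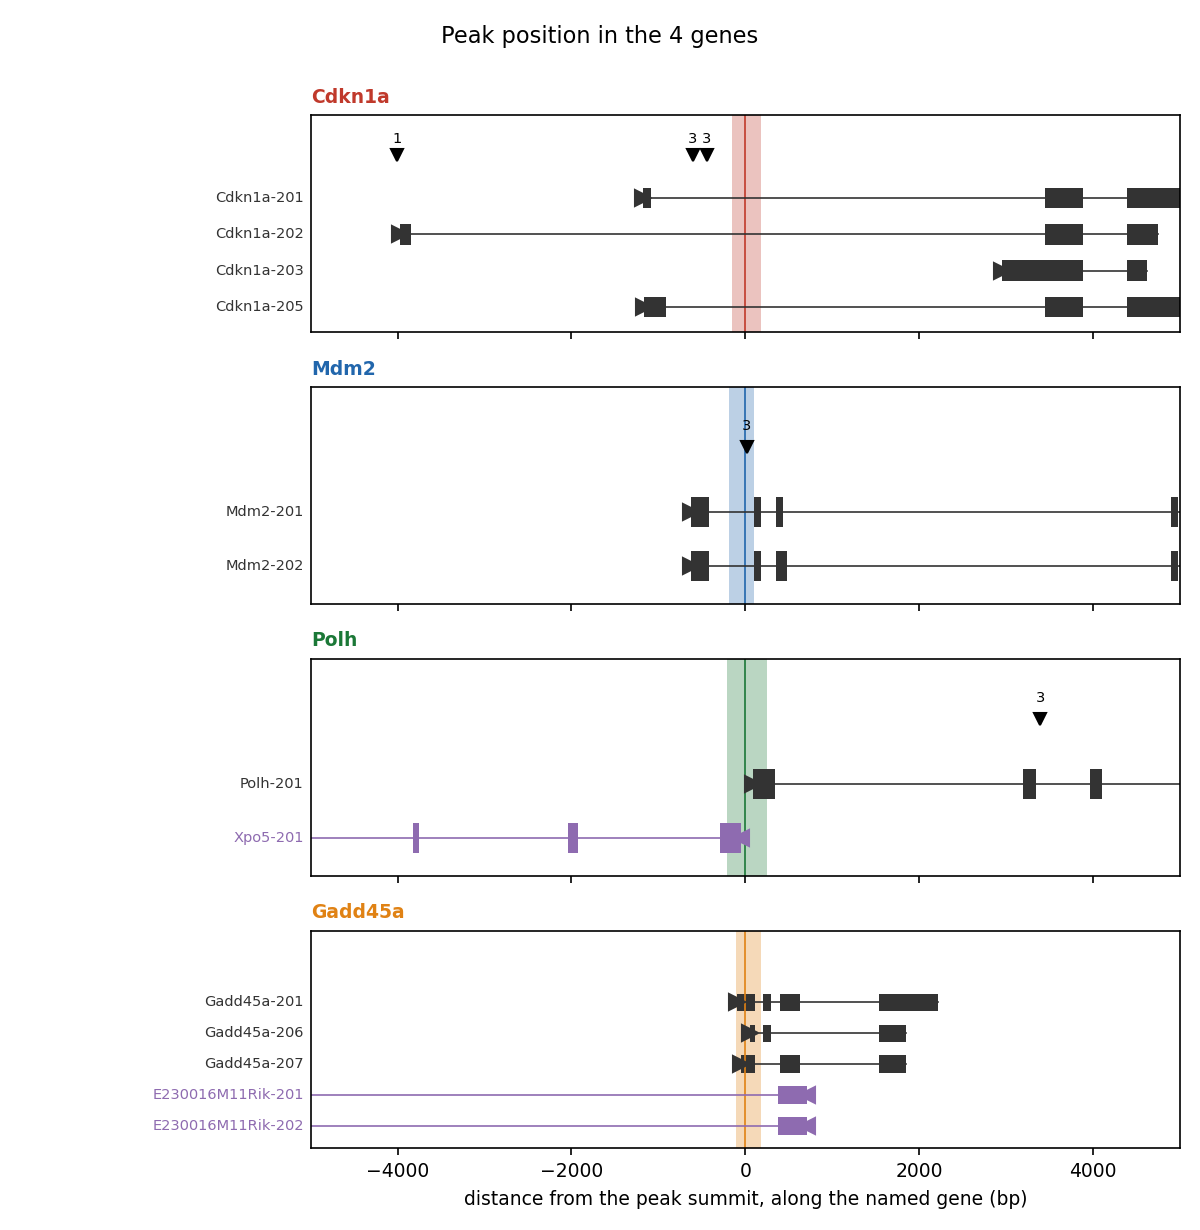
Position of each peak (shaded) and its summit (vertical line) on the transcripts of the gene, in bp from the summit along the named gene, drawn for protein-coding transcripts and for 2 of E230016M11Rik; boxes are exons, arrowheads start sites, purple transcripts run the other way, and black triangles are full p53 matches with their number of mismatches. The summits lie 1168 bp past the nearest protein-coding start site for Cdkn1a, 626 bp past for Mdm2, 89 bp before for Polh and 54 bp past for Gadd45a, and of the 4 peaks that of Mdm2 contains a full p53 match.

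MACS takes the largest of the local and genome-wide backgrounds, so that no peak can lie below the genome-wide value of 0.305 scaled tags or 2.83 input tags, and a local value was used at 221 of the 229 peaks. The background was 2.84 times this level at Cdkn1a, 2.83 times at Polh, 2.12 times at Gadd45a and 1.68 times at Mdm2. Against the genome-wide background the folds would be 9.96 at Cdkn1a and Gadd45a, 19.9 at Polh and 7.66 at Mdm2. The median background of the 188 peaks of ordinary pileup was 5.52 input tags, so Cdkn1a, Polh and Gadd45a lay above it and Mdm2 below.

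**Figure D3:**
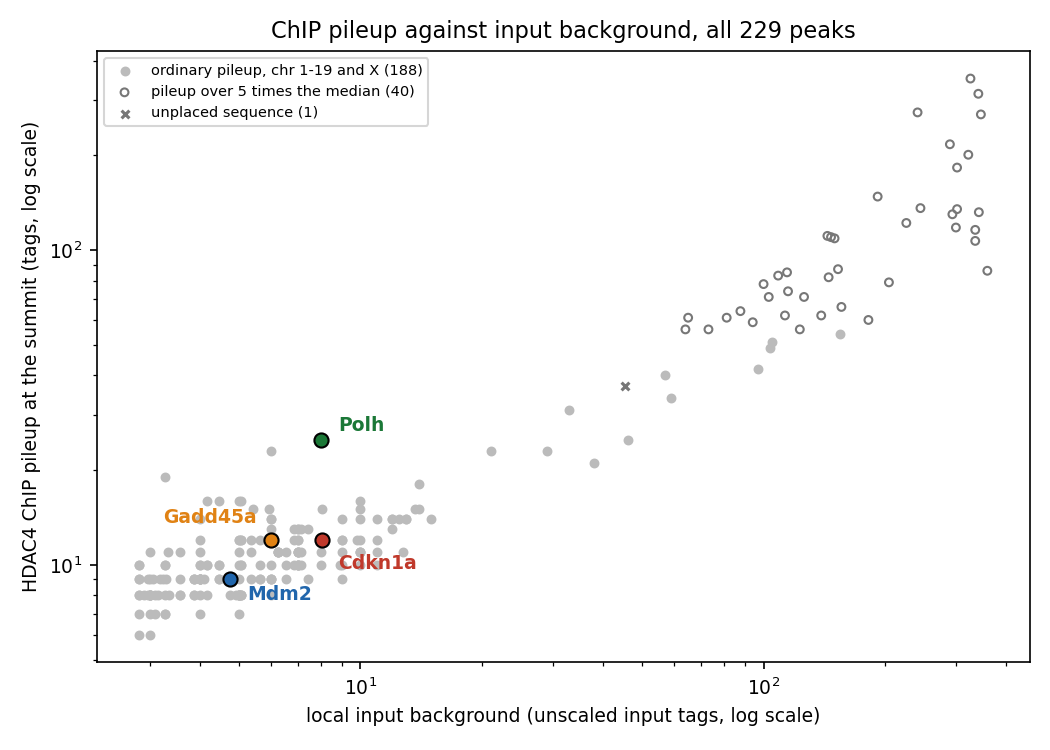
ChIP pileup at the summit against local input background, in tags on log scales, for all 229 peaks, with the 188 of ordinary pileup filled, the 40 of high pileup open, and Cdkn1a, Mdm2, Polh and Gadd45a in colour. Polh, with 25 tags over 8 input tags, stands above peaks of like background, and the other 3 lie within the cloud of ordinary peaks.

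By the nearness of both pileup and background on a log2 scale, the peaks most like Cdkn1a were those at Plekhj1 (12 tags, fold 6.97) and Rabep1 (12 tags, fold 6.98). For Gadd45a they were Cdc27, a subunit of the anaphase-promoting complex, and Fut11, a fucosyltransferase, with the same 12 tags and fold of 7.89. For Mdm2 they were Cacna2d2 (9 tags, fold 6.50) and, tied, Fzd5 and Frat2 (9 tags, fold 6.75), of which Fzd5 is a Wnt receptor. For Polh the nearest were Txnl4a, a splicing factor (23 tags, fold 14.6), and 2310061I04Rik (15 tags, fold 8.58). Values equal to those of Cdkn1a and Gadd45a thus occurred at other genes, and Polh had the fewest near neighbours, at log2 distances of 0.432 and 0.737.

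Each of the 4 peaks stood alone in its gene. The nearest other peak was at Vegfa, 171231 bp from that of Polh, at Yeats4, 485726 bp from that of Mdm2, at 2310061I04Rik, 6802277 bp from that of Cdkn1a, and at Hoxa11, 14792092 bp from that of Gadd45a. Cdkn1a and Polh are on the same chromosome, which has 10 peaks in all.

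In base composition the 4 peaks were close to each other. G and C made up 67.2% of the Cdkn1a peak, 69.7% of Mdm2, 67.7% of Polh and 70.8% of Gadd45a, and the median of the 188 peaks of ordinary pileup was 69.4%. The number of CpG over that expected from the base content was 0.715, 0.760, 0.967 and 0.806 in the same order, against a median of 0.859. Polh thus lay above the median for CpG and the other 3 below it. Repeats, as marked in the assembly, made up 0% of the Cdkn1a peak and from 6.71% to 9.76% of the other 3.

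**Figure D4:**
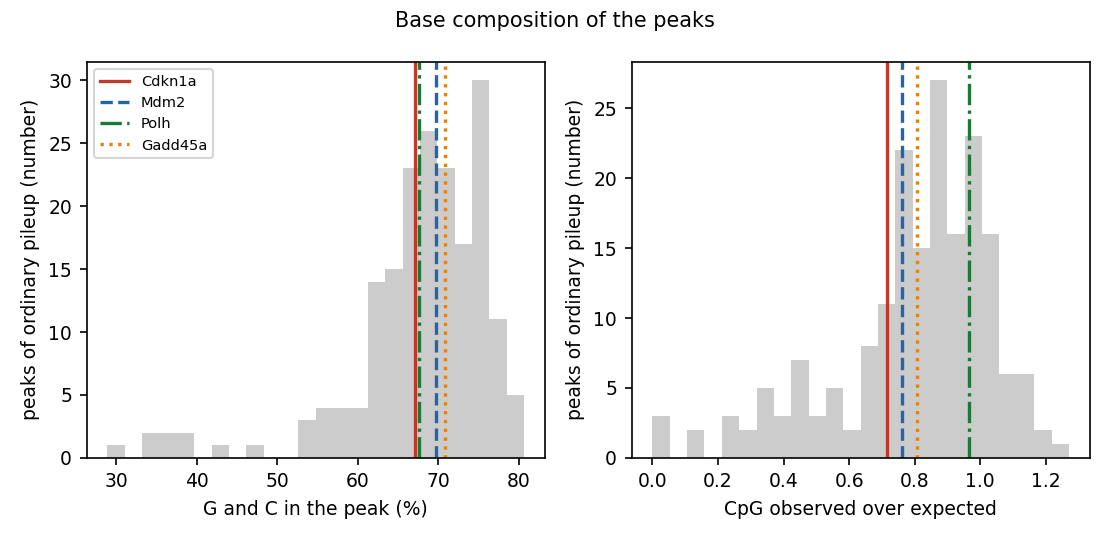
Share of G and C in the peak (%) and CpG observed over expected for the 188 peaks of ordinary pileup (grey bars, number of peaks), with the 4 genes as vertical lines. The lines run from 67.2% to 70.8% G and C and from 0.715 to 0.967 CpG observed over expected, within the bulk of the list.

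Matches to the p53 site were then searched. A half-site has 10 bases, and a match was allowed 1 mismatch outside its central C and G. A full site is 2 adjacent stretches of this pattern, each with the central C and G, and no spacer. It was allowed 3 mismatches in all, so a stretch in it can carry more than the 1 allowed to a half-site match. Half-site and full site read the same pattern on either strand. In the peak intervals, Mdm2 had 2 half-site matches and 1 full site, Polh had 1 half-site match, and Cdkn1a and Gadd45a had 0. In windows of 300 bp, half-site matches occurred around the summits of 46.3% of the 188 peaks of ordinary pileup and in 50.9% of the 32851 RefSeq promoters of the same length, so that a half-site at Mdm2 or Polh is a common feature. Full sites occurred in 2.66% of these peaks, that is in 5 of them, and in 1.38% of the promoters.

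The full match in Mdm2, GGTCAAGTTGGGACACGTCC at chr10:117710105-117710124, has 3 mismatches and its centre is 18 bp from the summit. It is the first run of capitals in the Mdm2 sequence above. The second run, TGACATGTCT at chr10:117710067-117710076, is a half-site with 1 mismatch, 61 bp from the summit. The other half-site match, GGACACGTCC, is the second part of the full match. Besides Mdm2, the peaks with a full match were those at Gm13363, Polr3e, Crtc1 and Syk, which are named after their values were seen.

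Near Cdkn1a, the closest match to the full site was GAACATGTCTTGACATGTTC, with 1 mismatch. It lies 4012 bp before the summit and 39 bp before the 5′ end of the gene, upstream of the start of Cdkn1a-201, where the gene is known to hold p53 response elements, and outside the peak. Other full matches with 3 mismatches each lay 605 and 442 bp before the summit, also outside the peak. Polh had a full match 3396 bp from the summit with 3 mismatches, and its half-site in the peak, GGGCTTGCTG, was 144 bp from the summit. Gadd45a had no full match within 5 kb under the rule used, with no spacer and the central C and G in both stretches. This does not show that no p53 site lies there. A half-site match without mismatch lay within the 300-bp window of Gadd45a but outside the peak. Of the 188 peaks of ordinary pileup, 42.0% had a full match of at most 3 mismatches within 5 kb. The matches with 3 mismatches near Cdkn1a and Polh were thus no rare feature of the list. The share of peaks with a match of at most 1 mismatch was not computed, so the closest match at Cdkn1a has no such comparison.

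Other motifs were searched on both strands in the same 300-bp windows, without mismatch. The promoters were not matched to the peaks in base composition, and its part in the shares below was not tested. The Polh window had 3 matches to the core motif of NRF1, a factor of CpG-rich promoters, at 85 bp, 4 bp and 19 bp from the summit on the assembly's coordinates. This motif was in 22.9% of the 188 peaks and in 6.23% of the promoters. The GC box GGGCGG, to which SP1 binds, occurred once in the windows of Polh and Gadd45a, and in 63.3% of the peaks and 35.7% of the promoters. The CRE half-site TGACG had 2 matches in the window of Polh and was in 26.1% of the peaks and 20.8% of the promoters, and the first of these matches overlaps an NRF1 match by 1 base. The AP-1 site TGANTCA was found in the Mdm2 window, 13 bp from the summit, against 3.19% of the peaks and 7.81% of the promoters. The RUNX core TGTGGT was found in the Polh window, 118 bp from the summit, against 10.6% of the peaks and 16.8% of the promoters. The Cdkn1a window had no match to any of the 12 motifs searched.

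None of the 4 windows had a match to the MEF2 site, the motif of the family through which HDAC4 is known to reach muscle genes. This motif was rare, with matches in 1.06% of the peaks and 0.557% of the promoters. The E-box CACGTG (9.04% of the peaks, 7.15% of the promoters), the CCAAT box CCAAT (13.3% and 37.4%) and the TATA box TATAAA (2.13% and 13.6%) were also without a match in the 4 windows. A match or its lack describes these letters only.

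The rest of the p53 pathway and the paralogs of the 4 genes were looked at through 8 lists. These hold 83 genes found in the annotation, the 4 genes included. By the names in the deposited table, 4 of the 83 genes had a peak, which are Cdkn1a, Mdm2, Polh and Apaf1, and Gadd45a does not count under this rule because its peak is named for E230016M11Rik. By the same rule 0.894% of the 21924 protein-coding genes had a peak. Since 3 of the 4 genes were chosen from the list, the count without Cdkn1a, Mdm2, Polh and Gadd45a is set beside this share. It was 1 of 79, the gene Apaf1. The lists themselves were chosen with earlier results of these data known, so this count is also a description only.

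By role, peaks were named for 1 of 9 genes of cell cycle arrest (Cdkn1a) and 1 of 8 of p53 feedback (Mdm2). They were also named for 1 of 9 of DNA repair and synthesis (Polh) and 1 of 18 of apoptosis (Apaf1). The share over all protein-coding genes was 0.894%. Cdkn1a, Mdm2 and Polh were chosen from the list, so their counts were fixed in advance. No peak was named for any of 11 genes of metabolism and stress, 5 of secreted and matrix proteins, 17 for p53 and its upstream regulators or 8 paralogs of the 4 genes. Genes at 0 include Trp53 itself, the apoptosis genes Bax, Bbc3 and Pmaip1, the phosphatase gene Ppm1d, and the paralogs Cdkn1b, Cdkn1c, Gadd45b, Gadd45g and Mdm4. With 1920168 kept ChIP tags, the lack of a peak says only that none passed the cutoff at this depth. At a share of 0.894%, lists this short would mostly hold no peak, so these counts do not set the roles apart.

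Apaf1 encodes the scaffold of the apoptosome, which activates caspase-9. Its peak, at chr10:91082406-91082702 (297 bp), had 11 tags (5.49–19.7), a fold of 7.04, a −log10 q of 5.97 and a ratio without the added tags of 15.6 (6.83–33.6), so its pileup and fold lay between those of Mdm2 and Gadd45a. The summit, at 91082449, lay in the untranslated part of exon 1, 321 bp past the 5′ end of the gene (ENSMUSG00000019979.12) and 20 bp before the start of Apaf1-207. A half-site without mismatch, AGGCAAGCCC at chr10:91082433-91082442, was 12 bp from the summit, and half-sites without mismatch were in 6.91% of the 188 peaks and 8.36% of the promoters. The peak had 70.0% G and C. The interval of its ratio takes the input count in the 1-kb window, as for Cdkn1a and Mdm2.

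Other rules for a gene with a peak gave like counts up to 10 kb. The counts that follow include the 4 chosen genes and are a description only. Without them the count was 1 of 79 (Apaf1) under each of these rules up to 10 kb. The rules read the same peaks and the same gene lists, so their counts are not independent. With the gene column alone, 4 of 83 genes had a peak, and 0.816% of protein-coding genes did. With a −log10 q of at least 5 or with the 50% of peaks with the higher fold, 3 genes had one, Mdm2 being lost in each, where the shares of protein-coding genes were 0.629% and 0.474%. With a start site within 1 kb of a summit, 4 genes had one (Apaf1, Gadd45a, Mdm2 and Polh), where the share was 0.78%, and within 10 kb, where Cdkn1a is added, 5 genes had one, where it was 1.13%. Within 100 kb, 11 genes had one, and without the 4 genes 7 of 79, where 4.3% of protein-coding genes had one. The 6 added genes were Chek2, Kat5, Mdc1, Pml, Sirt1 and Trp53bp1, at 48725 to 95590 bp from summits that are named for other genes, with folds of 5.46 to 8.58.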

How the data were processed

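HDAC4 ChIP-seq of C2C12 myoblasts was deposited as peak tables, called by the authors with MACS 2.1.0.20150316 on 1 ChIP library against 1 input library (q cutoff 0.01, fragment length 297 bp, tag size 50 bp, 1 tag per position). Reads were handled with CASAVA 1.8.2, cutadapt and Bowtie2 on mm10 per the submitters' processing notes, while the tool that named genes, and which cutadapt and Bowtie2 releases were run, are not stated in them. The deposited pileup is a signal in tags at the summit, the deposited fold is a ratio, (pileup + 1) / (background + 1), and the authors' peak caller wrote −log10 p and −log10 q. A second deposited table of the same peaks, with damaged number columns, was not used.

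The scaled background was recovered as (pileup + 1) / fold − 1, and a Poisson tail of the pileup over it returned the deposited −log10 p within 0.000142 for 229 peaks. Divided by the ratio of kept tags (0.1079), it gave whole input tags (largest deviation 0.000451, less than the rounding of the fold allows) in a window of 297 bp, 1 kb or 10 kb for 221 of the 229 peaks and the genome-wide value for 8. A count in 1 kb cannot be told from 10 times as many in 10 kb, in which case its interval would be narrower. Pileups carry exact Poisson intervals, and ratios of 2 counts exact binomial (Clopper-Pearson) ones, which cover counting error only. Intervals of the deposited fold put the bounds of the pileup into its formula and hold the background fixed. Peaks on chromosomes 1 to 19 and X with at most 5 times the median pileup served as the background of ordinary peaks. Gene models were from GENCODE M21 and sequence and promoters (250 bases before to 50 after each start) from RefSeq, both of GRCm38, the build mm10 names. Of 84 listed genes 83 matched. Coordinates are 1-based.

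Genes named are the 4 members, genes given at the same peaks, listed genes with a peak under any of the 7 rules, and the 2 peaks nearest to each member in log2 pileup and background. Listed genes named as lacking a peak and peaks with a full p53 match were chosen in addition. The members and lists were chosen with earlier results of these data known. No test was run, since there is 1 library of each kind. The motif search and the recovery of input tags were tested on simulated data. Software was Python 3.11.15 with matplotlib 3.10.9, scipy 1.17.1, pandas 2.3.3 and numpy 2.4.6.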

Additional observations from a re-analysis of the deposited data

How the results depend on the processing

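There was no replicate to leave out, and the 9 to 25 tags at each summit limit every value. No paired analysis was possible because the ChIP and the input were each sequenced 1 time, with no numbered replicates to pair. Of the alternative values computed, 26 stayed within the counting error, within the fragment length or near the main count, and 20 moved, and the cause was not tested where the construction does not show it. Without the added tags the ratio was 13.9 for Cdkn1a, 17.6 for Mdm2, 29.0 for Polh and 18.5 for Gadd45a. Cdkn1a thus took the lowest place from Mdm2. Each ratio was above the interval of its deposited fold (3.86–11.8, 3.38–11.96, 9.22–20.3 and 4.37–13.3). Those intervals carry the counting error of the pileup alone and hold the input background fixed. With the error of both counts, the interval of the ratio held the deposited fold at Cdkn1a (6.40–28.3), Polh (12.7–74.3) and Gadd45a (6.44–60.2). At Mdm2 the fold of 6.61 lay below it (6.84–42.2). With each scaled background under 1 tag, leaving out the added tag raises the value by construction. Folds against the genome-wide background (9.96, 7.66, 19.9 and 9.96) were within the intervals of the deposited folds.

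The share of the 229 peaks at or above each peak depended on the measure. By fold it was 39.3% for Cdkn1a, 52.0% for Mdm2, 1.31% for Polh and 17.03% for Gadd45a. By −log10 p it was 52.4%, 75.1%, 13.1% and 38.9%, and by pileup it was 69.4% for Mdm2, 21.4% for Polh and 37.99% for Gadd45a. Measured from the 5′ end of the gene, the distance to the Cdkn1a summit was 3973 bp in place of 1168 bp. Without a mismatch, half-site matches fell from 2 to 0 in the Mdm2 peak and from 1 to 0 in the Polh peak, and in a shorter window centred on the Polh summit there were 0. Within 1 kb to each side of the summit there were 3 for Cdkn1a, 6 for Mdm2, 8 for Polh and 8 for Gadd45a, in a window longer than the peaks. With start sites within 100 kb, the count rose from 4 to 11 of the 83 listed genes, which include the chosen genes and their paralogs. The share of protein-coding genes rose from 0.894% to 4.3%.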
